A study of Mus musculus with 8 samples.

Results

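The genes described here are 35 genes of endoplasmic reticulum (ER) protein folding and of the unfolded protein response, chosen by symbol from a fixed list and measured in a cultured fibroblastic reticular cell (FRC) line. All 35 were found among the 55367 rows of the gene count table, and 34 of them had at least 10 counts in at least 3 of the 8 libraries, as did 12137 genes in all. The exception, *Derl3*, a derlin known from secretory tissues, had 0 counts in each of the 8 libraries. FRCs are the fibroblasts that build the scaffold of the lymph node, and the line used here came from lymph nodes of p53ER/ER mice on a C57BL/6 background, so that every condition shares this genotype and the results are those of 1 cell line. Cells were kept for 4 days in low-serum RPMI that was renewed midway. Tumor-conditioned medium (TCM) was RPMI conditioned by B16.F10 melanoma cells, and its control, CCM, was RPMI conditioned by FRCs themselves. Lactic acid (LA) was added to RPMI at 15 mM, and its control, vehicle, was RPMI with the same amount of water. Poly(A) RNA was sequenced in 2 libraries per condition, which the study calls biological replicates. The labels do not say what separates them, so P values measure the spread between these libraries.

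The ER folds and modifies proteins that are bound for secretion or for membranes, and fibroblasts load it heavily with collagen. When unfolded proteins build up, 3 membrane sensors respond. IRE1 (gene *Ern1*) splices the mRNA of the transcription factor XBP1, ATF6 is cut to release a transcription factor, and PERK (gene *Eif2ak3*) slows translation while letting ATF4 and then CHOP (gene *Ddit3*) be made. ATF6 and XBP1 are known to raise ER chaperones and components of ER-associated degradation (ERAD), which pulls misfolded proteins back out to the proteasome. Read counts per gene cover the amount of each mRNA. They hold neither the splicing of *Xbp1* nor the cleavage of ATF6 nor any protein.

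Total counts ran from 8232889 to 14107964 per library, and 3 counts, taken as the floor, equaled 0.212 to 0.355 CPM, a count scaled to the size of its library. Floors cover counting error only. The 2 libraries of a condition differed beyond counting error throughout, with a chi-square per degree of freedom of 3.28 for CCM, 4.82 for vehicle, 7.32 for LA and 19.8 for TCM. Of 10 FRC and fibroblast markers, 8 passed the filter, *Pdpn* and *Pdgfrb* among them, while *Thy1* had 1 to 16 counts per library and *Icam1* 1 to 8. Summed leukocyte markers reached at most 0.191 CPM with 7 of 8 genes at 0 throughout, and summed melanoma markers stood between 1.82 and 3.67 CPM with no higher level in TCM (2.63 and 2.29 CPM) than in vehicle (2.23 and 3.42 CPM). Of 7 endothelial markers *Tek* alone passed the filter and of 5 epithelial ones *Cdh1* alone, both below 5 CPM in every library. Of 7 plasma cell markers only *Sdc1*, which fibroblasts also express, passed it, and 5 had no count in any library. With bulk RNA, fewer cells that express a gene and less of its RNA per cell cannot be told apart.

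The elements through which ATF6 and XBP1 are known to act are short, and they are shown first as a sequence feature that several of the genes share. The ER stress response element (ERSE) has the parts CCAAT and CCACG with any 9 bases between them, ERSE-II has ATTGG and CCACG with 1 base between them, and the UPR element was searched as TGACGTGG. Windows of 250 bases before and 50 bases from each start site in the RefSeq annotation of GRCm38.p6 were searched on both strands, and 27 of the 35 genes had a window. Positions are counted from the start site, with 0 as the first transcribed base. An exact ERSE was found in 9 of these 27 genes (33.3%) and in 37 of all 27025 genes with a window, these 9 included. By window, of which a gene can have several, it was 39 of 32851 (0.119%). Capitals mark the fixed bases in the lines that follow, and the bases between them differ from gene to gene.

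Hspa5, chr2:34772025-34772043, plus strand: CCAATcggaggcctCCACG
Pdia6, chr12:17266491-17266509, plus strand: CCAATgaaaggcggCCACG
Hsp90b1, chr10:86705533-86705551, plus strand: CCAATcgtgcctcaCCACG
Hsp90b1, chr10:86705638-86705656, minus strand: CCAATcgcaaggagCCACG
Calr, chr8:84847075-84847093, plus strand: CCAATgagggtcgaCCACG
Canx, chr11:50325800-50325818, minus strand: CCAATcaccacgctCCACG
Dnajc3, chr14:118937827-118937845, plus strand: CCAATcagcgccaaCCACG
Creld2, chr15:88819520-88819538, minus strand: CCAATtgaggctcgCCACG
Syvn1, chr19:6046532-6046550, plus strand: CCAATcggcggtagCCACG
Derl3, chr10:75893242-75893260, minus strand: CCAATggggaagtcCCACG
Herpud1, ERSE-II, chr8:94386377-94386387, plus strand: ATTGGgCCACG
Dnajb11, ERSE-II, chr16:22857852-22857862, plus strand: ATTGGcCCACG

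ERSE-II was found in *Herpud1* and *Dnajb11*, which is 2 of 27 genes (7.41%) against 12 of all 27025 genes and 12 of all windows (0.0365%). An exact element of either kind was held by 11 of 27 genes (40.7%), against 49 of all genes and 0.155% of windows. The UPR element was in 0 of the 27 genes, in 193 of all genes and in 222 of all windows (0.676%). None of the elements found in the 27 genes overlapped another, while 3 windows of other genes held an overlapping pair. Allowing 1 of the 10 fixed bases of an ERSE to differ, a setting chosen after the exact matches were seen, added *Pdia3*, *Pdia4*, *Herpud1*, *Sel1l* and *Derl2*. That made 14 of 27 genes (51.9%) against 466 of all genes and 494 windows (1.5%). The list was drawn up from genes known as targets of this response, so the shares describe the list and are no test of it. *Hspa13*, *Ssr2*, *Manf*, *Atf6*, *Derl1*, *Sec61a1*, *Hyou1* and *Sec11c* had no window and were not searched.

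**Figure D1:**
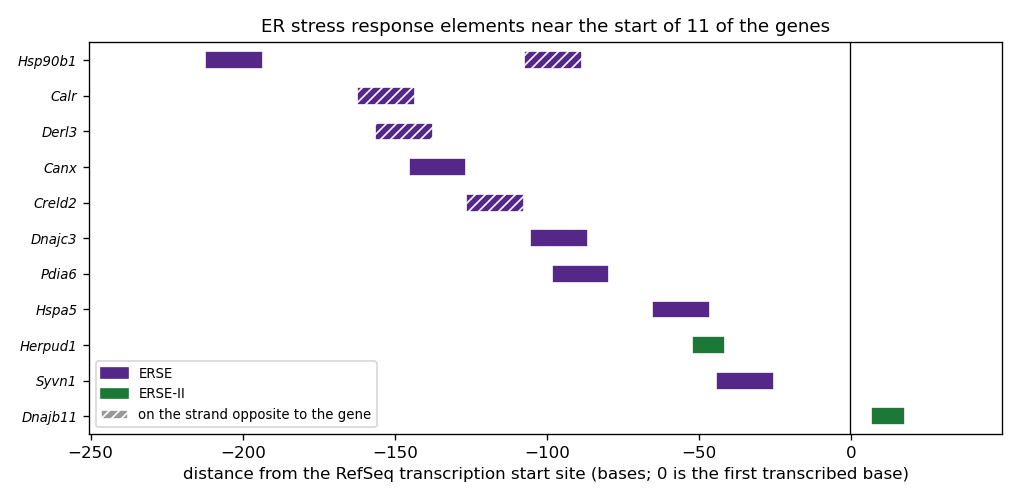
Place of each exact ERSE (purple) and ERSE-II (green) within 250 bases before and 50 bases after the RefSeq start site, for the 11 genes that hold one; the x axis is the distance in bases and hatched bars lie on the strand opposite to the gene. All but the ERSE-II of Dnajb11 lie before the start site, and the nearest ERSE is that of Syvn1 at −44 to −26.

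The promoters of a pair of genes are printed in full because both hold an exact ERSE and only the second gene passed the test after TCM, though the difference between the genes was not tested. *Hspa5* encodes BiP, the most used marker of the response, and its exact ERSE lies at −65 to −47. *Pdia6* encodes a disulfide isomerase that works with BiP, and its exact ERSE lies at −98 to −80. Of the 8 tested genes of this list with an exact ERSE, *Pdia6* alone was called after TCM. The 250 bases before each RefSeq start site, on the plus strand, read as follows with the fixed ERSE bases in capitals.

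Hspa5, chr2:34771840-34772089: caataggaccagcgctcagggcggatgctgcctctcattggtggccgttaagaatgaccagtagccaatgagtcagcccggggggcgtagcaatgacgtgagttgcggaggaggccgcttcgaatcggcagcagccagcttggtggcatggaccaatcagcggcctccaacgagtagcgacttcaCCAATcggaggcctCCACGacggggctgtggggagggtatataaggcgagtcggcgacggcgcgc
Pdia6, chr12:17266339-17266588: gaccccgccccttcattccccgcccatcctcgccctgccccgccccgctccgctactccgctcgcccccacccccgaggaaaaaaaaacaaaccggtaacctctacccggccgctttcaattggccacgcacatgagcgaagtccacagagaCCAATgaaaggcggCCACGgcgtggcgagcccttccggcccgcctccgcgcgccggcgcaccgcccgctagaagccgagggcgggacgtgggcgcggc

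Levels of the 34 genes in vehicle spread over a 153.3-fold range when CPM was divided by exon length. The lectin chaperone calreticulin (*Calr*) was highest at 685 CPM per kb, followed by the disulfide isomerase *P4hb* at 552, the HSP90 of the ER *Hsp90b1* at 413, the isomerase *Pdia3* at 354 and *Hspa5* at 341 CPM per kb. The lowest were *Ern1* at 6.31, *Atf6* at 5.54 and *Sec11c*, a signal peptidase subunit, at 4.47 CPM per kb. The chaperones *Hyou1* and *Hspa13* stood far lower than the others of their group, at 36.8 and 15.2 CPM per kb, and *Xbp1* at 35.5 CPM per kb was close to *Hyou1*. The summed level of the 34 genes was 14168 and 13898 CPM in the vehicle libraries, 14317 and 14230 CPM with LA, 12863 and 13067 CPM with CCM, and 14685 and 13438 CPM with TCM. Both TCM libraries lay above both CCM libraries, but one lay above and one below the vehicle libraries.

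**Figure D2:**
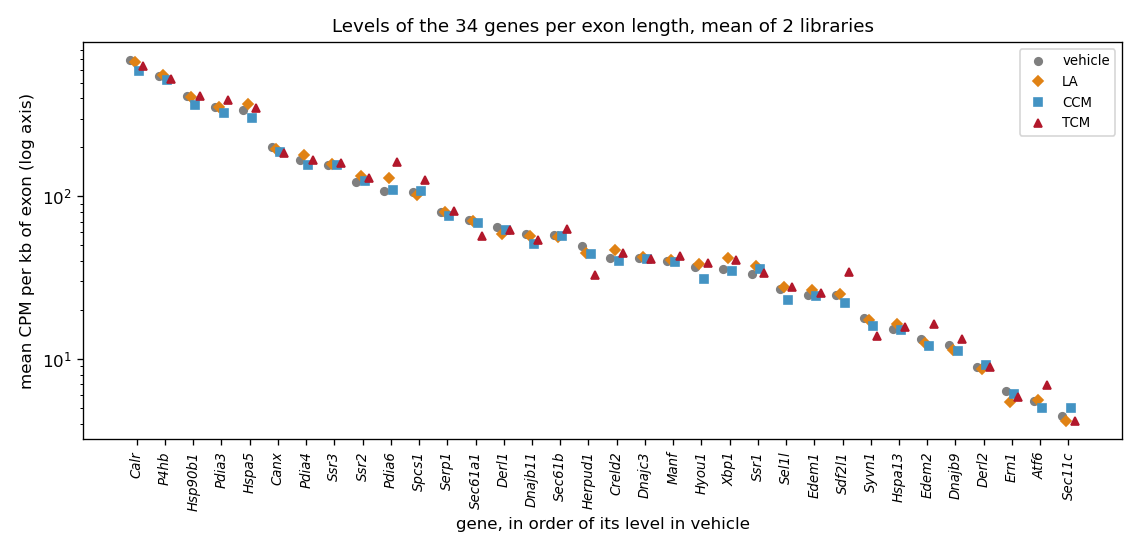
Mean CPM per kb of exon (log y axis) of the 34 tested genes in vehicle, LA, CCM and TCM, each the mean of 2 libraries, in order of the level in vehicle. Levels run from 685 CPM per kb for Calr to 4.47 for Sec11c, and the TCM point stands apart from the others for Pdia6, Sdf2l1, Atf6 and Edem2 (above) and for Herpud1 and Sec61a1 (below).

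The comparison of TCM with CCM asks what tumor-derived soluble factors change in FRCs. Most of the ER folding machinery did not pass the test, and the genes that did changed by less than 2-fold. *Pdia6*, *Sdf2l1*, *Atf6* and *Edem2* rose after TCM and *Herpud1* fell, where genes were called at an adjusted P value below 0.05 in edgeR's quasi-likelihood test and a log2 FC beyond 0.39. These 5 of 34 genes (14.7%) compare with 19.1% of all tested genes that were called in either direction. The 4 higher calls compare with 8.83% of all genes called higher, and the 1 lower call with 10.2% called lower. The median log2 FC of the 34 genes was 0.10 and that of all genes 0.00, with 25 of 34 above 0. Without TCM library 1 the median of the 34 genes was 0.03, and with vehicle as control 0.04, each with 22 of 34 above 0. The median size of the log2 FC, regardless of sign, was 0.165 for the 34 genes and 0.234 for all genes. Log2 FCs ran from −0.43 to 0.64, and the 95% interval of each of the 34 lay within −1 and 1. Both TCM libraries lay above the other 6 for 4 genes, *Pdia6*, *Sdf2l1*, *Atf6* and *Edem2*. They lay below the other 6 for another 4, *Canx*, *Herpud1*, *Syvn1* and *Sec61a1*. The share of all tested genes that separate this way was not counted, so the separation is given here and below as description, not as support for the calls. Counts scaled by library totals alone kept 5 calls but turned the balance to 2 higher and 3 lower, with *Atf6* and *Edem2* no longer called, *Sec11c* and *Sec61a1* called lower, 14 of 34 genes above 0 and the median of all genes at −0.14.

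*Pdia6* (chr12:17266545-17284770, plus strand, GRCm38) read 398 and 423 CPM in the CCM libraries, 666 and 551 CPM with TCM, 403 and 399.6 CPM with vehicle, and 502 and 463 CPM with LA. Both TCM libraries stood above all 6 others, and both LA libraries stood above vehicle and CCM. It rose 1.48-fold with TCM over CCM (log2 FC 0.57, 95% interval 0.32 to 0.81, adjusted P = 0.00437), and its log2 FC for LA over vehicle was 0.27 (0.02 to 0.51, adjusted P = 0.300). Its exons overlap *Atp6v1c2* on the opposite strand in GENCODE M21. Without CCM library 1 its adjusted P value was 0.0641.

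*Sdf2l1*, a partner of BiP and of the ER DnaJ proteins (chr16:17130138-17132383, minus strand), read 26.4 and 22.4 CPM with CCM and 42.5 and 33.8 CPM with TCM. Vehicle gave 28.1 and 26.4 CPM and LA 28.5 and 26.9 CPM, so that both TCM libraries again stood above all 6 others. This was the largest log2 FC among the 34 genes, at 0.64 (0.34 to 0.95, adjusted P = 0.00703), and without CCM library 2 its adjusted P value was 0.0806.

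*Atf6* (chr1:170704674-170867771, minus strand) read 46.6 and 45.7 CPM with CCM, 55.3 and 72.9 CPM with TCM, 48.6 and 53.7 CPM with vehicle, and 49.6 and 53.3 CPM with LA. The TCM libraries lay above the rest, the first of them by little. The log2 FC of TCM over CCM was 0.47 (0.18 to 0.77, adjusted P = 0.0259). Its value rested on TCM library 2, without which it was 0.26 (adjusted P = 0.0861), and without CCM library 1 or 2 the adjusted P value was 0.126 or 0.135.

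*Edem2*, a mannosidase that trims glycans of misfolded proteins for ERAD (chr2:155701677-155729475, minus strand), read 40.6 and 42.0 CPM with CCM and 59.5 and 54.5 CPM with TCM. With vehicle it read 48.1 and 43.7 CPM and with LA 47.8 and 39.3 CPM, below both TCM libraries in each case. It rose with TCM (log2 FC 0.47, 0.20 to 0.73, adjusted P = 0.0179), and this call was lost without CCM library 1 (adjusted P = 0.132) or library 2 (adjusted P = 0.0893).

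*Herpud1*, a membrane protein that assembles the ERAD complex and is strongly induced by ER stress (chr8:94386438-94395377, plus strand), read 105 and 103 CPM with CCM and 78.6 and 74.9 CPM with TCM. Vehicle libraries were at 130.0 and 101 CPM and LA libraries at 115 and 94.5 CPM, so that TCM was below all others. It fell by 0.43 on the log2 scale (95% interval −0.72 to −0.14, adjusted P = 0.0389). Leaving out any 1 of the 4 libraries compared left it without a call, with adjusted P values from 0.0724 to 0.173.

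**Figure D3:**
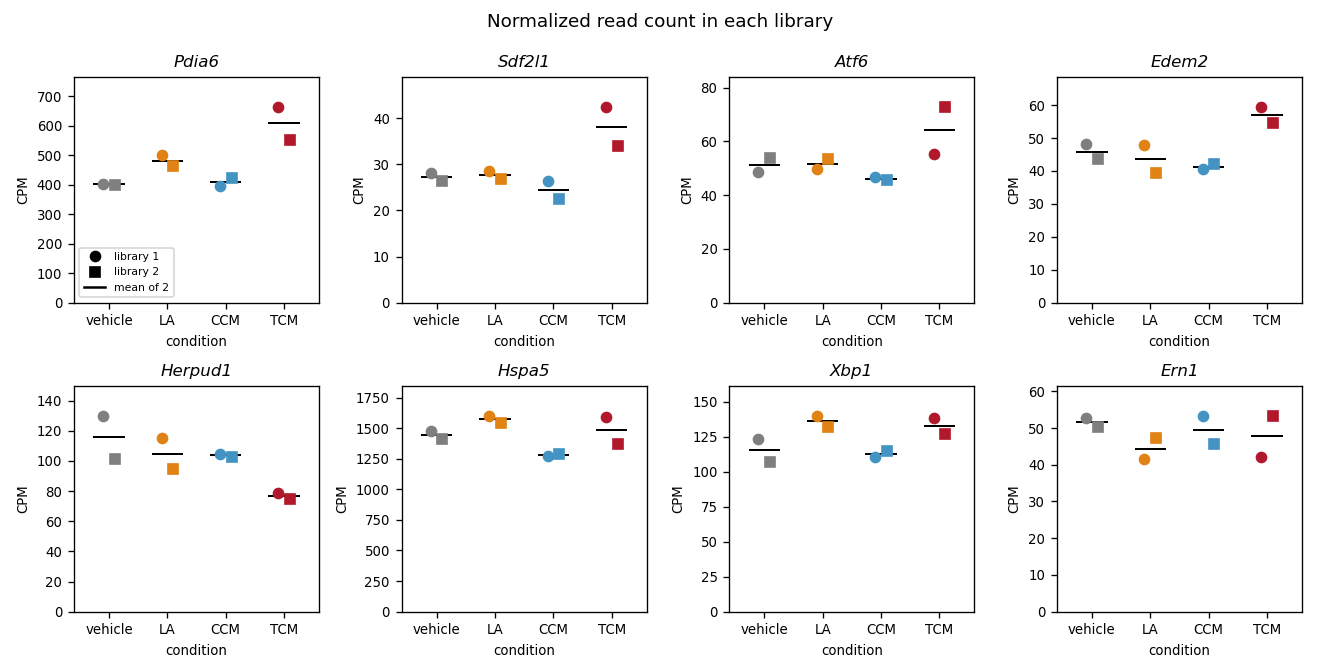
CPM in each of the 8 libraries for the 5 called genes and for Hspa5, Xbp1 and Ern1 (circle, library 1; square, library 2; bar, mean of 2; y axes start at 0). Pdia6, Sdf2l1, Atf6 and Edem2 have both TCM libraries above the other 6, Herpud1 has both below, and Hspa5, Xbp1 and Ern1 have TCM libraries within the range of the rest.

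Among the 6 chaperones none was called. *Hspa5* read 1275 and 1291 CPM with CCM, 1594 and 1373 CPM with TCM, 1473 and 1408 CPM with vehicle, and 1602 and 1541 CPM with LA. The TCM libraries were above those of CCM but one of them was below both vehicle libraries, and the LA libraries were above vehicle. The log2 FC was 0.21 for TCM (−0.03 to 0.45, adjusted P = 0.195) and 0.13 for LA (−0.11 to 0.36, adjusted P = 0.694). *Hyou1*, a large chaperone that exchanges nucleotide on BiP, passed the P threshold but not the fold threshold for TCM (log2 FC 0.33, adjusted P = 0.0243), with 230.3 and 219 CPM for CCM, 272 and 292 CPM for TCM and 269.8 and 262 CPM for vehicle. *Hsp90b1* (log2 FC 0.17), *Calr* (0.10), *Hspa13* (0.07) and the calreticulin-like *Canx* (−0.02) had adjusted P values from 0.281 to 0.905.

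Of the 4 disulfide isomerases *Pdia6* alone was called. *Pdia3*, which serves glycoproteins held by *Calr* and *Canx*, read 1009 and 1032 CPM with CCM and 1334 and 1109 CPM with TCM (log2 FC 0.26, adjusted P = 0.121). *Pdia4* had a log2 FC of 0.10, and *P4hb*, which is also the beta subunit of the collagen prolyl 4-hydroxylase, had 0.01 (−0.22 to 0.23, adjusted P = 0.965). Of the 6 co-chaperones and secreted stress proteins *Sdf2l1* alone was called. The DnaJ proteins *Dnajb9*, *Dnajb11* and *Dnajc3*, which deliver clients to BiP, had log2 FCs of 0.24, 0.07 and 0.00, and *Manf* and *Creld2*, which are secreted under ER stress, had 0.13 and 0.17.

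Among the 3 sensor and transcription factor genes *Atf6* alone was called. *Xbp1* read 110.5 and 115 CPM with CCM, 138 and 127 CPM with TCM, 124 and 107 CPM with vehicle, and 140.1 and 132 CPM with LA. Its log2 FC was 0.24 for TCM (0.01 to 0.46, adjusted P = 0.123) and 0.24 for LA (0.02 to 0.46, adjusted P = 0.303), neither of which passed edgeR's test. Libraries of both treated conditions lay above those of their own controls, an order whose share over all tested genes was not counted. *Ern1* read 53.4 and 45.8 CPM with CCM, 42.0 and 53.4 CPM with TCM, 52.7 and 50.4 CPM with vehicle, and 41.5 and 47.3 CPM with LA. Its TCM and CCM libraries overlapped (log2 FC −0.06, adjusted P = 0.80), and its log2 FC with LA was −0.21 (adjusted P = 0.558).

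Among the 7 tested ERAD genes *Edem2* and *Herpud1* were called in opposite directions. The ubiquitin ligase *Syvn1* and its partner *Sel1l*, which form 1 complex, had log2 FCs of −0.20 (adjusted P = 0.297) and 0.28 (adjusted P = 0.0809). *Sel1l* read 198 and 193 CPM with CCM and 216 and 259 CPM with TCM, whereas *Syvn1* read 82.4 and 71.5 CPM with CCM and 66.3 and 68.0 CPM with TCM. *Edem1* (log2 FC 0.05), *Derl1* (0.01) and *Derl2* (−0.04) had adjusted P values of at least 0.711. Of the 8 genes of the translocon, the signal peptidase and their helpers none was called. *Sec61a1*, the pore of the translocon, read 453 and 463 CPM with CCM, 384 and 382 CPM with TCM, 491 and 472 CPM with vehicle, and 475 and 475 CPM with LA. Its TCM libraries were the lowest of all 8, and its log2 FC of −0.26 (adjusted P = 0.0665) did not pass the test. The other subunit *Sec61b* (log2 FC 0.16), the translocon-associated *Ssr1* (−0.08), *Ssr2* (0.06) and *Ssr3* (0.04), the peptidase subunits *Sec11c* (−0.27) and *Spcs1* (0.24), and *Serp1* (0.12), which steadies proteins at the translocon under stress, had adjusted P values from 0.152 to 0.830.

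**Figure D4:**
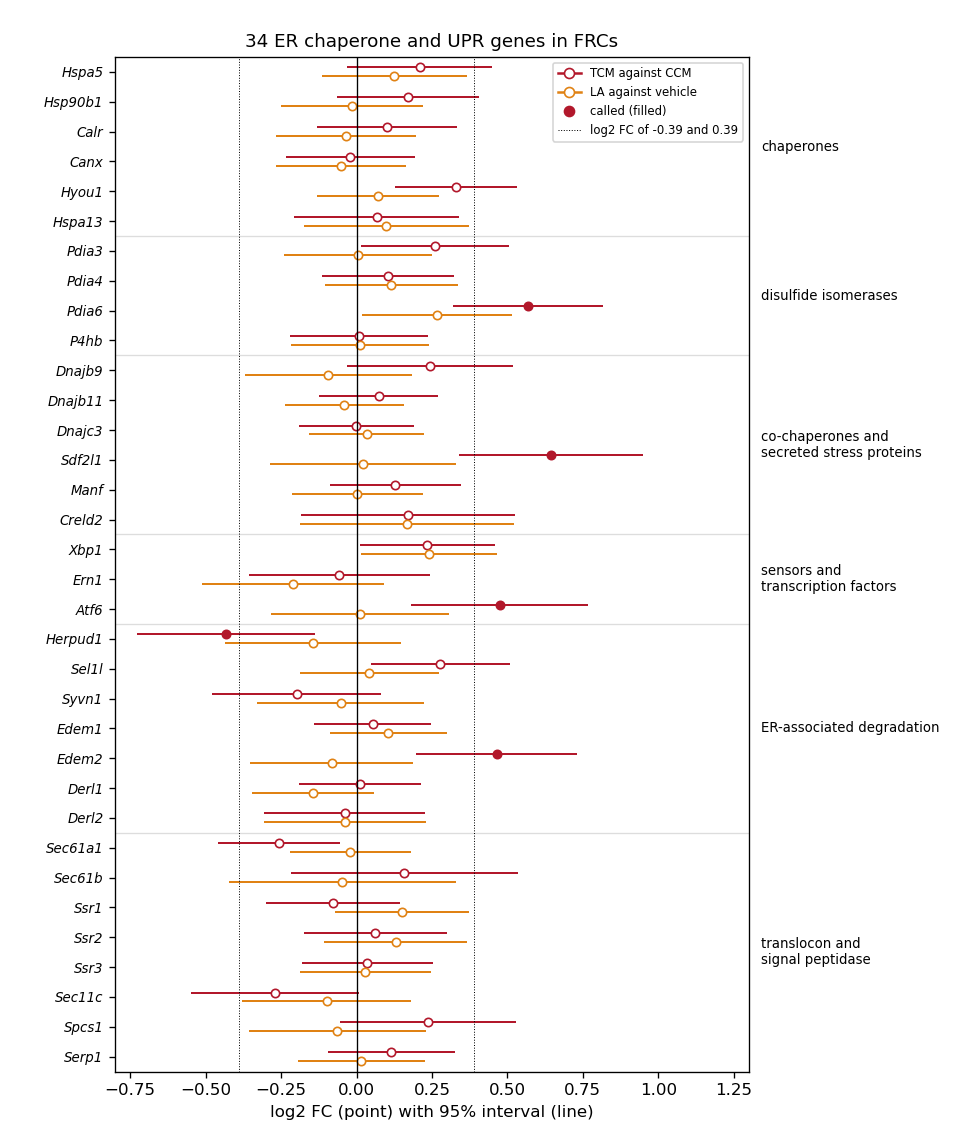
Log2 FC with 95% interval of the 34 genes for TCM against CCM (red) and LA against vehicle (orange), by role, from edgeR's fit on all genes; filled points were called and dotted lines mark log2 FCs of −0.39 and 0.39. Filled points are Pdia6, Sdf2l1, Atf6, Edem2 and Herpud1, all for TCM, and no LA point is filled.

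The calls for TCM can be read beside the promoter elements. Of the 8 tested genes with an exact ERSE 1 was called (12.5%), with a median log2 FC of 0.14, and of the 18 with a window and no exact ERSE 3 were called (16.7%), with a median of 0.11, both below the 19.1% of all tested genes. Outside the list 7 tested genes held an exact ERSE, of which 1 was called higher and 2 lower, with a median log2 FC of −0.30. *Hspa5* and *Pdia6*, printed above with an exact ERSE each at like distances, had log2 FCs of 0.21 and 0.57. Both genes with an exact ERSE-II, *Herpud1* and *Dnajb11*, had −0.43 and 0.07.

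LA against vehicle asks how far lactic acid alone acts on FRCs. None of the 34 genes was called by edgeR or by DESeq2, where 2.55% of all tested genes were called by edgeR. At an unadjusted P value under 0.05 edgeR gave 2 of the 34 genes, *Pdia6* and *Xbp1*, both higher, against 1731 of all 12137 tested genes. The smallest adjusted P value among the 34 was 0.300. The median log2 FC was 0.01 with 19 of 34 genes above 0, and its median size was 0.0587 for the 34 genes against 0.136 for all genes. Log2 FCs ran from −0.21 for *Ern1* to 0.27 for *Pdia6*. The 95% interval of *Hspa5* reached up to 0.36, that of *Sdf2l1* ran from −0.29 to 0.33, and that of *Atf6* from −0.28 to 0.30. Changes within these bounds were not excluded with 2 libraries per condition.

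The difference between the TCM effect and the LA effect, called the interaction, tests whether a gene responded unequally to both. None of the 34 genes was called by edgeR or by DESeq2, against 10.4% of all tested genes by edgeR. In edgeR 2940 of all 12137 tested genes had an unadjusted P value under 0.05, and 3 of the 34 did. These were *Edem2* (0.55, adjusted P = 0.0661), *Sdf2l1* (0.62, adjusted P = 0.0688) and *Atf6* (0.46, adjusted P = 0.154), so the calls these genes had for TCM and not for LA are not shown to differ between the treatments. For *Pdia6* the interaction was 0.30 (−0.04 to 0.65, adjusted P = 0.270). Without TCM library 2 the interaction was called for 5 of the 34 genes (14.7%), *Edem2*, *Pdia6*, *Sdf2l1*, *Sec61b* and *Spcs1*, against 20.9% of all tested genes. TCM then rests on 1 library, which is assumed to vary like the other groups.

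The choice of control mattered to the calls for TCM. CCM against vehicle gave 0 calls among the 34 genes in edgeR and in DESeq2, against 1.3% of all tested genes in edgeR. Of the 34 genes 2, *Hyou1* and *Sel1l*, had an unadjusted P value under 0.05 in edgeR, against 1563 of all 12137. In this comparison 27 of the 34 genes were not above 0 and 7 were, with a median log2 FC of −0.08. Set against vehicle in place of CCM, TCM gave 3 calls, *Pdia6* (log2 FC 0.60) and *Sdf2l1* (0.49) higher and *Herpud1* (−0.59) lower, where 17.5% of all genes were called. *Atf6* at 0.32 (adjusted P = 0.113) and *Edem2* at 0.31 (adjusted P = 0.0929) were not called against vehicle. TCM against CCM and CCM against vehicle share the CCM libraries, so that a low CCM value moves both.

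The TCM libraries differed from each other with exon length. Over genes with up to 1.5 kb of exon, TCM library 1 was higher than TCM library 2 by a median log2 ratio of 0.39, and over those with more than 6 kb it was lower, at −0.19. Of the 34 genes 25 (73.5%) were higher in TCM library 1, with a median of 0.12, against 50.4% of all tested genes. Up to 1.5 kb it was 3 of 3 against 83.0% of all genes of that length, and from 1.5 to 3 kb 7 of 7 against 77.4%. From 3 to 6 kb it was 11 of 14 against 51.0%, and over 6 kb 4 of 10 against 24.4%. *Sdf2l1*, with 1.11 kb of exon, was higher in library 1, and *Atf6*, with 9.23 kb, was higher in library 2. With a correction for exon length in each library, chosen after this was seen, the same 5 genes were called, *Sdf2l1* at a log2 FC of 0.53 and *Atf6* at 0.49.

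Other genes of the same compartment and of the stress response were read from 9 further lists. The list named for the arm that runs from PERK to ATF4 and CHOP had most calls. Read counts do not measure the activity of PERK, and whether it changed was not tested. Of its 14 genes 6 fell after TCM and none rose, with a median log2 FC of −0.34, where 10.2% of all tested genes were called lower. Against vehicle 8 of the 14 were called lower with a median of −0.92, where 8.9% of all genes were, so that the size depended on the control. After LA edgeR called 0 of the 14, against 2.55% of all tested genes. At an unadjusted P value under 0.05 there were 2 of the 14, against 1731 of all 12137 tested genes. *Ddit3* was called lower after LA by DESeq2, and by edgeR without the filter on low counts, with the replicate block, numbered as labelled or with CCM crossed, and with the exon length correction. *Atf5*, a transcription factor induced by this arm, read 481 and 462 CPM with CCM, 249 and 218 CPM with TCM, 497 and 456 CPM with vehicle, and 435 and 391 CPM with LA. The TCM libraries were far below all 6 others, and the log2 FC was −1.01 (−1.25 to −0.78, adjusted P = 0.000103). *Sesn2*, a stress-induced regulator of mTORC1, read 109 and 113 CPM with CCM and 45.7 and 57.0 CPM with TCM (log2 FC −1.12, adjusted P = 0.000313). The other genes of this list called lower were *Ddit3*, the kinase-like inhibitor *Trib3*, the glutathione-degrading *Chac1* and the cell death gene *Bbc3*. Over the 8 fits that each left out 1 library, *Chac1* lost this call in 4, *Trib3* in 2 and *Ddit3* in 1, while *Bbc3* kept it. From 4 to 8 of the 14 were called lower and none higher in every other setting tried, with 4 when either TCM library was left out. *Eif2ak3* itself had a log2 FC of −0.10 and *Atf4* of −0.22, neither called. The summed level of the list was 1831 and 1869 CPM with CCM and 1341 and 1267 CPM with TCM.

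The collagen folding list had 4 of 16 genes called higher after TCM and none lower, where 8.83% of all tested genes were called higher. *P4ha1* and *P4ha2*, the catalytic alpha subunits that pair with *P4hb* in the prolyl 4-hydroxylase, rose by log2 FCs of 0.73 (adjusted P = 0.000334) and 0.76 (adjusted P = 0.000159). *P4ha1* read 507 and 495 CPM with CCM, 862 and 802 CPM with TCM, 616 and 614 CPM with vehicle, and 603 and 622 CPM with LA. *P4ha2* read 103 and 103 CPM with CCM, 178 and 172 CPM with TCM, 117 and 111 CPM with vehicle, and 110.0 and 115 CPM with LA. In both genes TCM was above all other libraries, while the shared subunit *P4hb* read 1508 and 1472 CPM with CCM and 1577 and 1420.3 CPM with TCM. *Plod3*, a collagen lysyl hydroxylase, and *P4ha3*, another alpha subunit, were the other 2 called, and without CCM library 1 or 2 *P4ha1*, *P4ha2* and *Plod3* were called and *P4ha3* was not.

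In the remaining 7 lists 7 of 123 tested genes were called after TCM (5.69%), against 19.1% of all tested genes. Among 20 other ER folding enzymes *Sil1*, an exchange factor for BiP, rose by 0.51 (adjusted P = 0.00694) and *Pdia5* by 0.42 (adjusted P = 0.0277). Among 19 other ERAD genes the lectin *Os9* alone was called, from 178 and 178 CPM with CCM to 265 and 265 CPM with TCM (log2 FC 0.57, adjusted P = 0.000851). Of 18 other genes of the translocon and targeting *Srp14*, of the signal recognition particle, was called (log2 FC 0.59, adjusted P = 0.0340), with 174 CPM in one TCM library and 108 CPM in the other. Of 21 COPII and ER exit genes *Tmed10* was called (log2 FC 0.39, adjusted P = 0.0134). Of the 12 subunits and relatives of the oligosaccharyltransferase and of 17 heat shock proteins of the cytosol and mitochondria, edgeR and DESeq2 called none. At an unadjusted P value under 0.05 edgeR gave 2 of the 12 and 4 of the 17, against 4169 of all 12137 tested genes. Among 16 genes of ATF6 processing and other ER stress factors, *Wfs1* rose by 0.73 (adjusted P = 0.00719) and *Nfyc*, a subunit of the factor that binds CCAAT, fell by 0.83 on the log2 scale (adjusted P = 0.00261). When CCM library 1 or 2 was left out, *Sil1*, *Pdia5*, *Srp14* and *Tmed10* were not called and *Os9* and *Nfyc* were. *Wfs1* was not called without CCM library 2 (adjusted P = 0.0611), and against vehicle its log2 FC was 0.16 (adjusted P = 0.50).

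LA had 1 call over all 9 lists in edgeR. That is 0.735% of the 136 tested genes outside the heat shock list, whose 17 tested genes had 0 calls. Of all tested genes 2.55% were called. *Creb3l1*, which encodes an ER-bound transcription factor (OASIS) known for its part in collagen production, read 71.7 and 68.9 CPM with vehicle and 43.8 and 46.7 CPM with LA, against 57.4 and 51.6 CPM with CCM and 44.6 and 43.1 CPM with TCM. The LA libraries were below both vehicle libraries and below CCM, and the gene fell by 0.63 on the log2 scale with LA (adjusted P = 0.0105). Leaving out any 1 of the vehicle or LA libraries ended this call, with adjusted P values from 0.0637 to 0.101. With TCM over CCM its log2 FC was −0.32 (adjusted P = 0.0514). Against vehicle edgeR called it lower with TCM too (adjusted P = 0.00108), so the fall was not particular to LA.

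**Figure D5:**
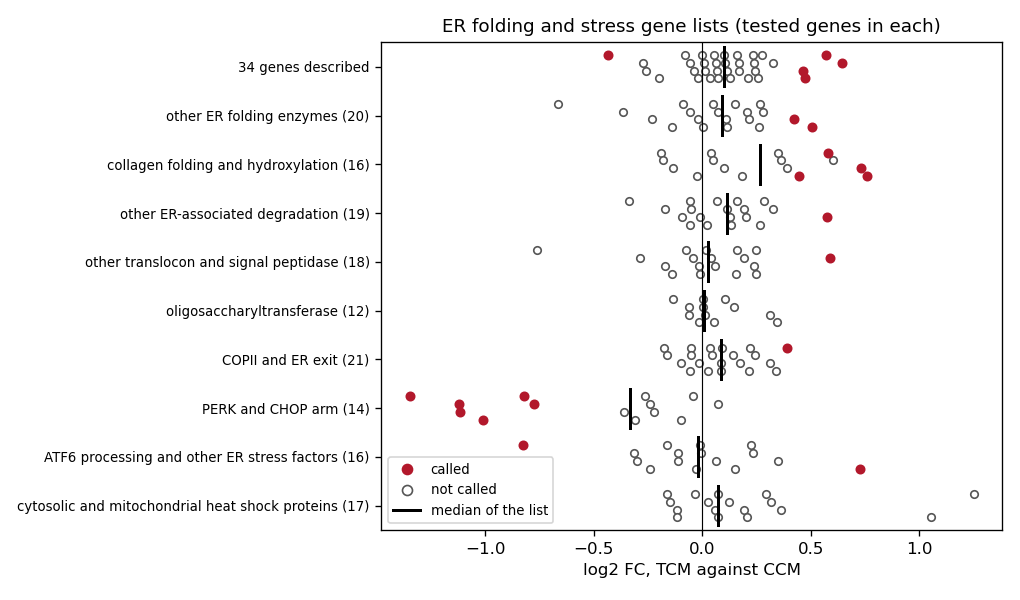
Log2 FC of TCM against CCM for the 34 genes and for each tested gene of 9 further lists (points; filled red, called; vertical bar, median of the list). The list of the PERK and CHOP arm has its median at −0.34 with 6 filled points, all below 0, and the collagen folding list has 4 filled points, all above 0.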

How the data were processed

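RNA of 8 libraries, 2 each for vehicle, LA, CCM and TCM, was compared by gene. The authors deposited whole-number read counts per gene without normalization, from directional poly(A) libraries aligned with STAR 2.7.0a to GRCm38 and counted with featureCounts (Subread 2.0.1) per the submitters' processing notes, which also name DESeq2 1.32.0; whether counting used strand is not given in the sources used here. A second deposited table held the same counts for the 12137 tested genes and was not used, and 0 columns of samples were left out. Conditions and replicate numbers came from the sample labels.

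Counts were fitted with edgeR 4.0.16 in R 4.3.3 (TMM factors 0.938 to 1.04, quasi-likelihood test, robust, all 8 libraries, 1 mean per condition, biological coefficient of variation 0.0903) on genes that reached 10 counts in 3 or more libraries. P values were adjusted over these genes by the Benjamini-Hochberg method, and the interaction is the TCM effect minus the LA effect. CPM uses TMM-scaled totals. With 2 libraries against 2, an exact permutation test of a single gene cannot go below P = 0.333, so tests rest on the spread shared across genes. The scripts were tested on simulated data. Gene positions, exon lengths and overlaps come from GENCODE M21; 11 of the 35 genes have exons that overlap a gene on the opposite strand and 3 on the same strand, so their counts are uncertain. Start sites and sequences come from RefSeq (GRCm38.p6).

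The members and lists were chosen with earlier results of these data known. Values in every library are given for the genes called in any comparison and for *Hspa5*, *Xbp1*, *Ern1* and *Atf6*; of each further list at most 2 genes called with TCM and 2 with LA, those of smallest adjusted P value, follow a rule. Others named, such as *Hyou1*, *Sel1l*, *Sec61a1*, *Ddit3* and *Plod3*, were chosen after their values were seen. Alternatives were DESeq2 1.42.0 and its size factors, no TMM factors, other filters and fold thresholds, only the libraries compared, the replicate number as a block and each library left out in turn; after seeing the data the other control medium, crossed CCM numbers and an exon length correction were added.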

Additional observations from a re-analysis of the deposited data

Results flagged for a closer look

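The interaction tests the TCM effect minus the LA effect. Under it, 9 of the named genes from the further lists differed between the treatments in edgeR's test. They are 6.62% of the 136 tested genes outside the heat shock list, whose 17 tested genes had 0 calls. Of all tested genes 10.4% were called. All 9 were also called for TCM over CCM, an effect that is part of this contrast, so the 2 calls are not independent. The 6 with a higher value under TCM were *Wfs1* (1.24, adjusted P = 0.00436), *P4ha2* (0.77, adjusted P = 0.00226), *P4ha1* (0.74, adjusted P = 0.00507), *Plod3* (0.60, adjusted P = 0.00909), *Sil1* (0.58, adjusted P = 0.0350) and *Os9* (0.57, adjusted P = 0.0123). For *Wfs1*, which encodes an ER membrane protein, the TCM and LA effects had opposite signs, at 0.73 and −0.52, and CCM against vehicle was at −0.57. Those with a lower value were *Sesn2* (−0.85, adjusted P = 0.0197), *Atf5* (−0.81, adjusted P = 0.00587) and *Nfyc* (−0.72, adjusted P = 0.0475). Leaving out 1 library ended 5 of these calls: *Sil1* without any 1 vehicle, LA or CCM library (adjusted P from 0.0740 to 0.143), *Os9* without vehicle library 2, LA library 2 or CCM library 1 or 2 (0.0635 to 0.0825), *Sesn2* without vehicle library 2, LA library 1 or CCM library 1 or 2 (0.0618 to 0.0949), *Plod3* without CCM library 1 or 2 (0.0528 to 0.0695), and *Nfyc* without any 1 library but TCM library 2 (0.0566 to 0.173). *Wfs1*, *P4ha1*, *P4ha2* and *Atf5* kept theirs without any 1 library. None of the 34 genes passed this test. Groups of 2 libraries are too small for a check of single outlying libraries.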

How the results depend on the processing

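Calls among the 34 genes for TCM against CCM numbered 5, and 4 to 6 under every other normalization, filter or model except these: 0 with a log2 FC beyond 1, 3 with vehicle as control, and 1 to 6 when a library was left out. The 1 was *Sdf2l1* without CCM library 1 and *Pdia6* without CCM library 2. For the interaction, 0 became 2 without a filter on low counts (*Edem2*, *Sdf2l1*), 2 with the exon length correction (*Atf6*, *Edem2*) and 0 to 5 when a library was left out, 5 of them without TCM library 2. LA against vehicle and CCM against vehicle stayed at 0 in every setting. For single genes, 3991 of 4158 values kept their status, 113 lost a call, 54 gained one and 0 reversed. Kept status includes genes that were not called and stayed so, so it is no share of calls that held. The causes were not tested.

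Same-numbered libraries did not all deviate together (correlations of deviations across genes from 0.386 for vehicle with LA to −0.278 for CCM with TCM), so the replicate numbers were not taken as pairs. With the replicate block the 34 genes had 5 calls for TCM, 0 for LA and CCM and 1 for the interaction (*Sdf2l1*), and among the further lists *Ddit3* gained a call for LA and *Trib3* for the interaction, with no other call changed; with the CCM numbers crossed they had 5, 0, 0 and 2.

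Over all genes, calls for TCM, LA, the interaction and CCM numbered 2314, 310, 1268 and 158. They were 760, 86, 634 and 19 with a log2 FC beyond 1. Without a filter LA gave 656 and CCM 584, with the CCM numbers crossed LA gave 596, the interaction 1938 and CCM 457, and with the length correction LA gave 530 and CCM 414. With only the libraries compared CCM gave 679. Without TMM factors 24.2% of TCM calls were higher against 46.3% with them. The floor of at most 0.355 CPM lies far below the levels of the 34 genes, and the median SE of a log2 FC was 0.106 for the 34 genes.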
